A study of Glycine max with 12 samples.

Results

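LCL1, LCL3 and LCL4 are soybean (Glycine max) genes for MYB-type transcription factors of the LHY/CCA1 kind, the morning arm of the plant daily clock. They were taken by their row names from a table of 55051 genes, with earlier results of these data known, and all 3 were among the 33119 genes abundant enough to test. RNA came from leaves of wild-type plants of the cultivar Magellan raised in growth chambers under regular watering. The 4 groups were combined stress (drought and heat together), heat stress alone, water deficit alone, and untreated control, with 3 libraries each. The severity and length of the treatments, the number of plants behind a library and the hour of harvest are not given in the sources used here. Nothing in the labels says whether the libraries of a group came from separate plants, so p-values measure the spread between these libraries, which may be technical.

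As background, the clock of Arabidopsis runs on mutual repression between genes that peak at different hours. LHY and CCA1 transcripts peak around dawn, and their proteins bind evening genes such as TOC1 and the members of the evening complex (LUX, ELF3, ELF4) and hold them down by day. The evening proteins repress the morning genes in turn, so that the level of an LHY-type transcript in a leaf depends strongly on the hour. Soybean keeps several LHY copies from genome duplications. In the RefSeq gene table, LCL1 carries the alias GmLHY1a, LCL4 the alias GmLHY1b and LCL3 the alias GmLHY2a. The remaining copy, GmLHY2b or LCL2, stands under the symbol MYB114 and is not one of the 3 genes, but its values are given beside them where copies are compared.

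Depth was 26077068 to 46186226 reads per library. The lowest count behind any value was 673 reads for LCL1, 386 for LCL4 and 162 for LCL3, so counting error was small beside the differences between libraries. MYB114 was lower, with 43 reads at the least. The leaf label was checked on 8 light-harvesting, Rubisco and Rubisco activase genes, whose summed normalized count was 311225 to 980417 per library. Leghemoglobin genes of the root nodule reached at most 0.893 in a library, and 7 of 8 seed storage and inhibitor genes were at 0 in all 12 libraries. The nodule-named gene NOD33 was present, at 130.3 to 615.0. In bulk leaf RNA, fewer cells of a type and less RNA per cell cannot be told apart. Library 3 of heat stress stood apart from libraries 1 and 2, and library 1 of combined stress apart from libraries 2 and 3, in all 3 genes.

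Normalized counts below are the authors' read counts divided by a scaling factor per library, and they are not divided by gene length, so levels are compared between libraries and not between genes. LCL1 had normalized counts of 556, 3612 and 3019 in combined stress libraries 1 to 3 and 1429, 1097 and 6104 in heat stress libraries 1 to 3. It had 3331, 2742 and 1876 in water deficit, and 2815, 2519 and 1906 in control. Both the lowest and the highest level of LCL1 in the series were therefore found in the heated groups, and no group was free of overlap with control.

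LCL4, the partner copy of LCL1, repeated this profile. Its normalized counts were 319, 2056 and 1488 in combined stress, 977, 757 and 2861 in heat stress, 1981, 1684 and 1035 in water deficit, and 1540.1, 1388 and 1083 in control. The same library was the highest of its group for LCL1 and LCL4 in all 4 groups, and the same library was the lowest.

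LCL3 had normalized counts of 308, 1863 and 2112 in combined stress and 204, 153 and 2013 in heat stress. In water deficit it had 788, 669 and 502, against 416, 412 and 332 in control. All 3 water deficit libraries were above all 3 control libraries, which was not so for LCL1 or LCL4. Of all genes tested, 27.4% had no overlap between water deficit and control, and 13.9% were without overlap and higher, so a separation of this kind is common in these libraries. Heat stress libraries 1 and 2 were below every control library for LCL3, and heat stress library 3 was far above.

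MYB114, the fourth LHY copy, had 35.5, 420.0 and 363 in combined stress, 126, 79.9 and 523 in heat stress, 174, 116 and 70.9 in water deficit, and 216, 119 and 158 in control. Combined stress library 1 was again the lowest of its group and heat stress library 3 the highest of its own. Its water deficit and control libraries overlapped, unlike those of LCL3, its partner copy.

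**Figure D1:**
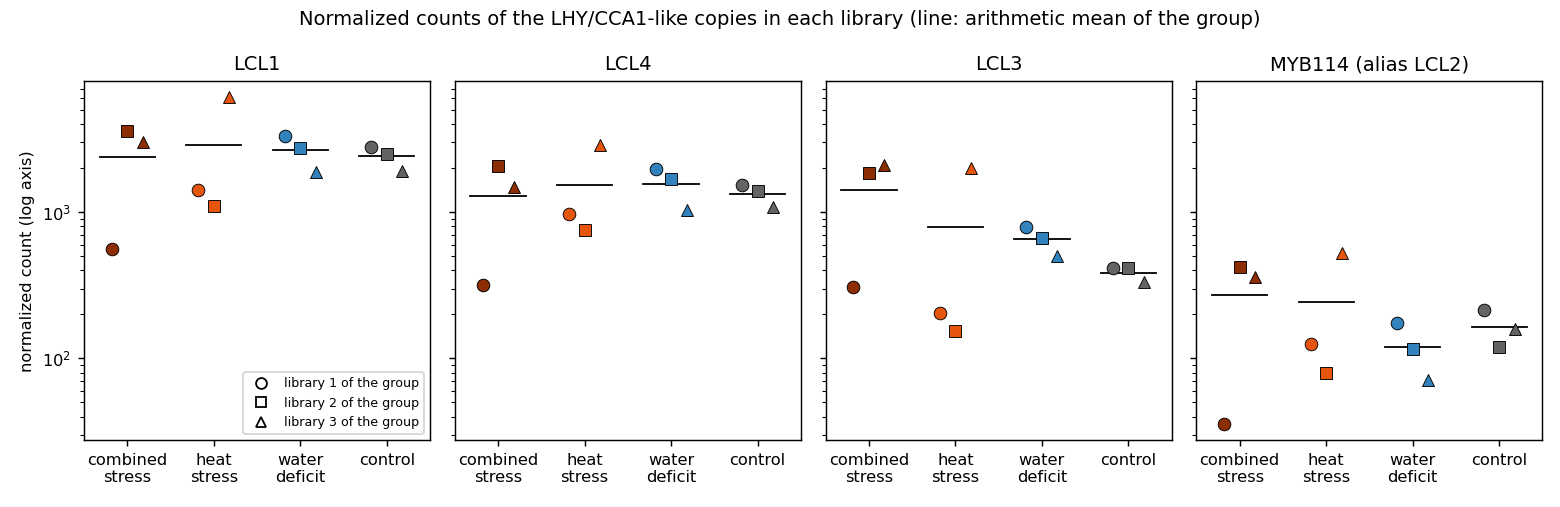
Normalized counts (log axis) of LCL1, LCL4, LCL3 and MYB114 in each library of combined stress, heat stress, water deficit and control, with marker shapes for libraries 1 to 3 and a line at the arithmetic mean of the group. In each panel, library 1 of combined stress lies below libraries 2 and 3 and library 3 of heat stress lies above libraries 1 and 2, and LCL3 runs from 502 to 788 in water deficit against 332 to 416 in control.

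Libraries of the heated groups differed from each other far more than those of the unheated groups. For LCL1 the highest library of a group was 6.50 times the lowest in combined stress, 5.57 times in heat stress, 1.78 times in water deficit and 1.48 times in control. LCL3 gave 6.86 times in combined stress, 13.1 in heat stress, 1.57 in water deficit and 1.25 in control. On the log2 scale the standard deviation of LCL3 within a group was 1.55 in combined stress, 2.03 in heat stress, 0.33 in water deficit and 0.18 in control (n = 3 each). The median gene had 0.35, 0.37, 0.27 and 0.25 in these groups in the same order. In heat stress 97.7% of tested genes varied less than LCL3, 92.7% less than LCL1 and 87.5% less than LCL4. In combined stress these shares were 97.2% for LCL3, 96.8% for LCL1 and 96.4% for LCL4. They were lower in water deficit, at 59.4% for LCL3, 71.0% for LCL1 and 77.0% for LCL4. In control 35.3% of genes varied less than LCL3, 58.7% less than LCL1 and 52.9% less than LCL4.

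The order of the groups depended on the scale of the mean, and on heat stress library 3. LCL3 averaged 1428 ± 978 normalized counts in combined stress, 790.1 ± 1059 in heat stress, 653 ± 144 in water deficit and 387 ± 47.6 in control (SD, n = 3 each). LCL1 averaged 2396 ± 1621 in combined stress, 2877 ± 2800 in heat stress, 2650 ± 732 in water deficit and 2413 ± 464 in control (SD, n = 3 each). For LCL4 the means were 1288 ± 886, 1532 ± 1157, 1567 ± 484 and 1337 ± 233 in the same order of groups (SD, n = 3 each). No step between neighbours in these orders was called by the test given next. Every such step was smaller than the larger SD of its 2 groups, except that of LCL3 between water deficit and control. Without heat stress library 3 the heat stress mean would be 179 for LCL3, 1263 for LCL1 and 867 for LCL4, below the control mean of each gene. On the log2 scale used for testing, LCL1 averaged 10.83 in combined stress, 11.05 in heat stress, 11.33 in water deficit and 11.22 in control, and LCL4 kept the same order of groups with 9.96, 10.33, 10.56 and 10.37. The log2 means of LCL3 were 10.06 in combined stress, 8.64 in heat stress, 9.33 in water deficit and 8.59 in control.

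The test fitted all genes and all 4 groups at once with limma on log2(normalized count + 1), which understates changes of low genes, and called a gene at an adjusted p under 0.05. Over the 3 genes and 7 contrasts (each pair of groups, and the interaction), 0 of 21 results were called, 0 had an unadjusted p under 0.05, and the limma adjusted p ran from 0.286 to 0.981. edgeR and DESeq2 on reads recovered from the table also called 0 of the 21, and DESeq2 gave 1 unadjusted p under 0.05, for LCL3 in combined stress against control. In the same limma fit, 13.8% of all tested genes were called between combined stress and control, 3.11% between heat stress and control and 1.28% between water deficit and control. These shares depended on single libraries. With 1 library left out they ran from 6.01% (without combined stress library 3) to 19.9% (without heat stress library 3) for combined stress and from 0.419% (without control library 2) to 14.3% (without heat stress library 3) for heat stress. For water deficit they ran from 0.0905% (without control library 3) to 2.66% (without combined stress library 1). For single genes, an exact two-sided permutation test of 3 libraries against 3 cannot give a p below 0.1.

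Combined stress against control gave LCL3 1.47 on the log2 scale (SE 0.87, 95% interval -0.44 to 3.38, limma adjusted p 0.286). LCL1 and LCL4 went the other way in the same comparison, with log2 changes of -0.38 (95% interval -1.92 to 1.15) and -0.41 (-1.79 to 0.96). Each of these values depended on library 1 of combined stress. Without it the log2 change was 2.36 for LCL3 (limma adjusted p 0.0693), and for LCL1 and LCL4 it turned to 0.47 and 0.40.

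Heat stress against control gave limma log2 changes of 0.05 for LCL3, -0.17 for LCL1 and -0.04 for LCL4. The 95% intervals reached from -1.86 to 1.96 for LCL3 and from -1.70 to 1.37 for LCL1, so a difference of 2 times in either direction lies within them. Without heat stress library 3, the log2 changes were -1.11 for LCL3 (limma adjusted p 0.271), -0.93 for LCL1 and -0.62 for LCL4, and none was called. With edgeR the log2 change was 1.04 for LCL3 (edgeR adjusted p 0.526), and for LCL1 and LCL4 the signs were positive (0.26 and 0.20).

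Water deficit against control gave 0.74 for LCL3 (SE 0.87, limma adjusted p 0.799), 0.11 for LCL1 and 0.19 for LCL4. The standard error of LCL3 comes from all 4 groups and so carries the spread of the heated ones. Fitted on the 6 libraries of water deficit and control alone, the same change had a limma adjusted p of 0.0954, the lowest of any setting tried, and the exact permutation p was 0.1, the smallest 3 against 3 can give.

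Between the stresses, combined stress minus heat stress gave 1.42 for LCL3 (SE 0.87, limma adjusted p 0.379), -0.22 for LCL1 and -0.37 for LCL4, against 5.21% of all genes called. For LCL3 edgeR gave 0.86. The difference in LCL3 was the only result of the 3 genes that crossed the threshold in any setting: without heat stress library 3 the log2 change was 2.58 with a limma adjusted p of 0.0183, in a fit that called 20.6% of all genes. Combined stress minus water deficit, where 12.7% of all genes were called, gave 0.73 for LCL3, -0.50 for LCL1 and -0.61 for LCL4. Heat stress minus water deficit, where 16.4% were called, gave -0.69 for LCL3, -0.28 for LCL1 and -0.24 for LCL4. For the interaction, limma called 0% of genes, with 3132 at an unadjusted p under 0.05, while edgeR called 0 and DESeq2 called 276. The interaction was 0.68 for LCL3 (SE 1.24), -0.33 for LCL1 and -0.56 for LCL4. Without heat stress library 3, limma called 4.76% of all genes for the interaction and none of the 3 genes, with 1.85 for LCL3 (limma adjusted p 0.238).

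**Figure D2:**
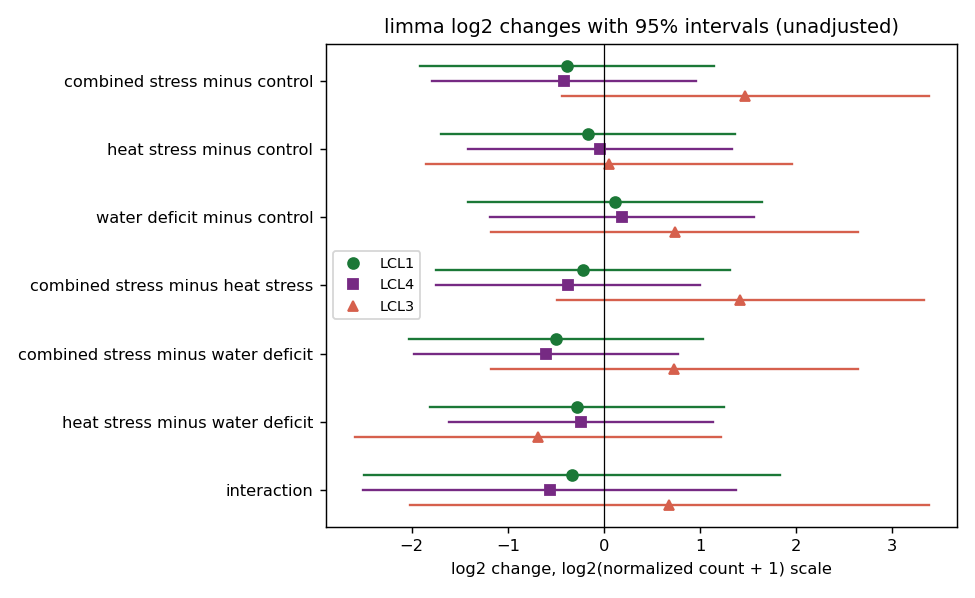
Log2 changes of LCL1, LCL4 and LCL3 on the log2(normalized count + 1) scale, with 95% limma intervals that are not adjusted for the number of genes, for the 6 pairs of groups and the interaction. Every interval crosses 0, and LCL3 lies furthest to the right in combined stress against control (1.47) and against heat stress (1.42).

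The balance between LCL3 and LCL1 was also described within each library, as the ratio of their normalized counts. The ratio of LCL3 to LCL1 within a library was 0.554, 0.516 and 0.700 in combined stress libraries 1 to 3 and 0.143, 0.140 and 0.330 in heat stress libraries 1 to 3. It was 0.236, 0.244 and 0.267 in water deficit, against 0.148, 0.164 and 0.174 in control. A ratio of this kind does not depend on how libraries are scaled, and since gene length is not taken out, only its differences between libraries can be read.

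Every combined stress library was above every other library in this ratio, including library 1, where both genes were low. The lowest combined stress value, 0.516, had an exact 95% interval of 0.490 to 0.543 and the highest value outside the group, 0.330 in heat stress library 3, one of 0.314 to 0.346. Both intervals are Clopper-Pearson and cover counting error only. The mean ratio was 0.590 ± 0.097 in combined stress, 0.204 ± 0.109 in heat stress, 0.249 ± 0.016 in water deficit and 0.162 ± 0.013 in control (SD, n = 3 each). These means are 3.65, 1.26 and 1.54 times that of control for combined stress, heat stress and water deficit. The heat stress value rests on library 3, without which it is 0.874 times control, with libraries 1 and 2 below every control library. That last order lies within counting error. The exact intervals were 0.121 to 0.169 and 0.118 to 0.165 in heat stress libraries 1 and 2, against 0.134 to 0.163 in control library 1. With 1 of its own libraries left out, combined stress stayed between 3.31 and 3.88 times control. Water deficit was also free of overlap with control. The ratio was examined after the values of the genes had been seen, so these separations are given as a description with no test.

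LCL3 over LCL4 gave the same order of group means. That ratio was 0.966, 0.906 and 1.42 in combined stress, 0.209, 0.203 and 0.703 in heat stress, 0.398, 0.397 and 0.485 in water deficit, and 0.270, 0.297 and 0.306 in control. Without heat stress library 3 the heat stress mean of this ratio was 0.206, against 0.372 with it and 0.291 in control. Among all 33119 genes tested, 1.01% had a ratio to LCL1 that was higher in all 3 combined stress libraries than in the other 9, and 1.3% had such a ratio to LCL4. LCL1 and LCL4 themselves varied widely within the heated groups, so a gene that did not vary with them could hardly have such a ratio. These shares therefore do not show how rare it is among genes that vary with LCL1 or LCL4. For water deficit against control the corresponding shares were 5.85% and 4.71%.

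LCL4 over LCL1, by contrast, stayed within a narrower band. It was 0.574, 0.569 and 0.493 in combined stress, 0.684, 0.690 and 0.469 in heat stress, 0.595, 0.614 and 0.552 in water deficit, and 0.547, 0.551 and 0.568 in control. From the lowest to the highest of 12 libraries it ran from 0.469 to 0.690, while LCL3 over LCL1 ran from 0.140 to 0.700. Both ends of the range of LCL4 over LCL1 were in heat stress, library 3 the lowest and library 2 the highest. Without heat stress library 3 the heat stress mean of LCL4 over LCL1 was 1.24 times that of control, against 1.11 times with it.

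MYB114 was set beside LCL3 in the same way, also after the values had been seen. The ratio of LCL3 to MYB114 averaged 6.31 ± 2.16 in combined stress, 2.46 ± 1.21 in heat stress, 5.78 ± 1.28 in water deficit and 2.50 ± 0.84 in control (SD, n = 3 each). Both groups short of water, combined stress (4.44 to 8.67) and water deficit (4.51 to 7.08), lay above heat stress (1.62 to 3.85) and control (1.93 to 3.47) without overlap. The exact 95% intervals for counting error did overlap across this gap. They were 4.03 to 4.89 in combined stress library 2 and 3.85 to 5.32 in water deficit library 1. Heat stress library 3 had 3.51 to 4.22, and control library 2 had 2.90 to 4.17. Of all tested genes, 0.323% had a ratio to MYB114 that was higher in these 6 libraries than in the other 6. MYB114 also varied widely within the heated groups, so this share has the same limit as those for LCL1 and LCL4. The ratio of MYB114 to LCL1 was 0.064, 0.116 and 0.120 in combined stress, 0.088, 0.073 and 0.086 in heat stress, 0.052, 0.042 and 0.038 in water deficit, and 0.077, 0.047 and 0.083 in control. Its mean in combined stress was 1.45 times that of control, and combined stress libraries 2 and 3 were the highest of all 12. In contrast to LCL3 over LCL1, combined stress library 1 lay within the range of control, and water deficit overlapped with control and was at 0.641 times its mean. How the authors' counting divided reads among near-identical copies is not stated, and all of these ratios are uncertain to that extent.

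**Figure D3:**
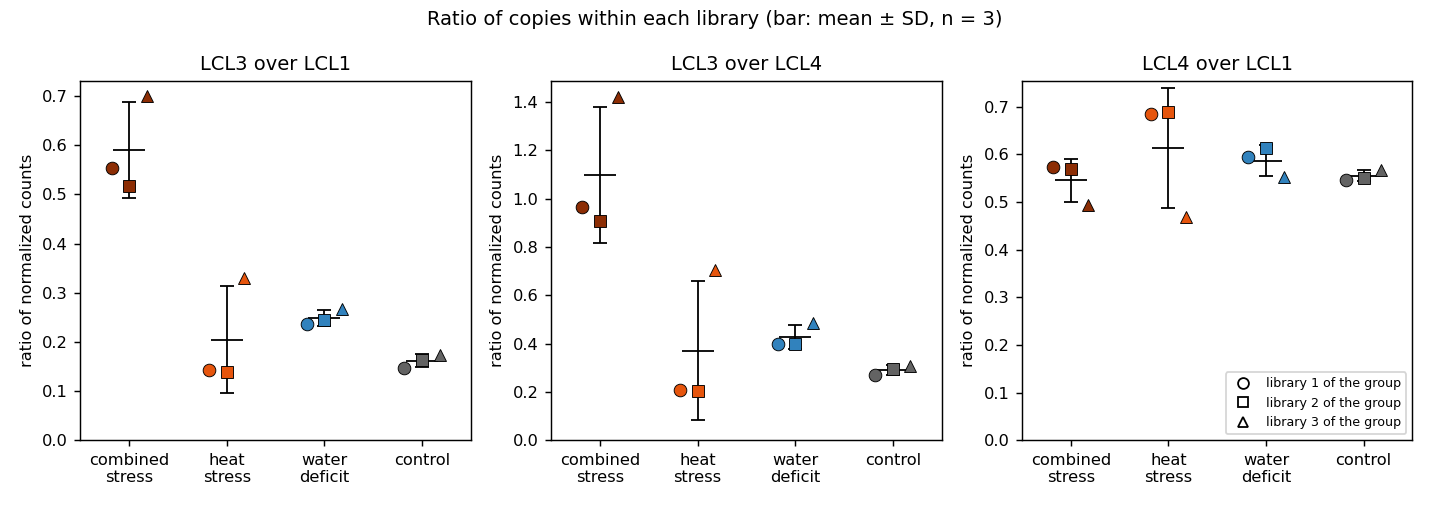
Ratio of normalized counts within each library for LCL3 over LCL1, LCL3 over LCL4 and LCL4 over LCL1, by group, with marker shapes for libraries 1 to 3 and bars for the mean ± SD (n = 3). Combined stress lies at 0.516 to 0.700 for LCL3 over LCL1, above the 0.140 to 0.330 of the other 9 libraries, while LCL4 over LCL1 stays between 0.469 and 0.690 throughout.

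Over the 12 libraries, Pearson's r between LCL1 and LCL4 was 0.99 and Spearman's rho 0.97 on log2(normalized count + 1). LCL3 was less like them, with r of 0.77 to LCL1 and 0.69 to LCL4, and with Spearman's rho of 0.88 and 0.83. Without the 3 combined stress libraries the r values became 0.96 and 0.94 over 9 libraries. These correlations are descriptions, since the libraries share their scaling and fall into groups, and heat stress library 3 with combined stress libraries 2 and 3 lie far from the rest. Libraries of like LCL1 level, picked after the values had been seen, give an example. LCL1 was at 3019 in combined stress library 3, 2742 in water deficit library 2 and 2815 in control library 1. LCL3 stood at 2112, 669 and 416 in these libraries.

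**Figure D4:**
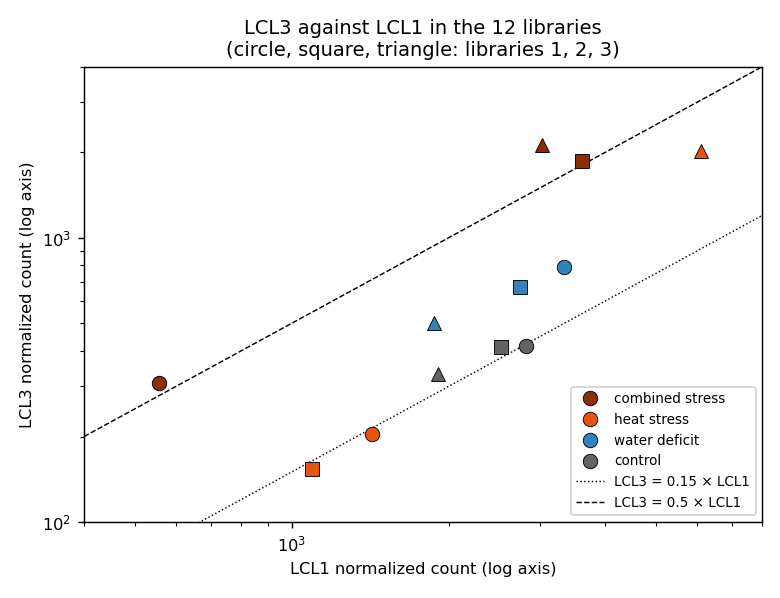
LCL3 against LCL1 normalized counts (both axes log) in the 12 libraries, coloured by group, with dotted and dashed guide lines of constant ratio. Control and heat stress libraries 1 and 2 lie along the lower line, with water deficit above it. Heat stress library 3 lies between the lines, at a ratio of 0.330 that is higher than in any water deficit library. The 3 combined stress libraries lie above the upper line, at ratios of 0.516 to 0.700.

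Genes of like pattern were ranked by r among 25219 other genes whose normalized count averaged 100 or more. LCL4 was the closest gene to LCL1 and LCL1 the closest to LCL4. Next for LCL4 came LOC100781183 (r of 0.97), which was also second for LCL1 (0.95) and ran from 87.6 in combined stress library 1 to 347 in combined stress library 2. LOC100785311 and LOC100815930 were among the 5 closest to both LCL1 and LCL4, LOC100792173 to LCL1 and LOC100817119 to LCL4. LCL3 shared none of these. Its 5 closest were LOC100811195 (0.97), LOC100815278 (0.96), LOC100785237 (0.96), LOC100796278 (0.96) and PHYE1 (0.95), a phytochrome that senses red and far-red light.

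Running most strongly opposite were LOC100779881 for LCL1 (r of -0.95) and LOC100789464 for LCL4 (-0.96), and both genes, with LOC100803479, made up the 3 most opposite of LCL1 and of LCL4. For LCL3 the 3 most opposite were LOC100814947 (-0.96), LOC100796050 (-0.96) and LOC100792126 (-0.95). Leaving out heat stress library 3 and combined stress libraries 2 and 3, the r of LCL3 with its 5 closest genes was 0.85 to 0.88 over the other 9 libraries, and that of LCL1 with LOC100781183 was 0.98. The table gives no function for the genes named by LOC symbols.

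The rest of the clock was read from lists of gene names covering evening genes, light-sensing F-box proteins, photoreceptors, and flowering and output genes. In all, 45 rows matched and 38 of them were tested. No further LHY-type and no pseudo-response regulator row matched by name, apart from TOC1, which is counted with the evening genes. The lists were written with earlier results of these data known.

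Of the 38 genes, 0 were called higher and 6 lower between combined stress and control, where 6.56% of all genes were called higher and 7.25% lower. Between heat stress and control, 1 was called higher and 4 lower, with 1.72% and 1.39% over all genes. Between water deficit and control, 0 were called higher and 4 lower, with 0.589% and 0.688% over all genes. The median log2 change over the 38 against control was -0.41 for combined stress, -0.32 for heat stress and -0.34 for water deficit, beside -0.01, -0.01 and 0.02 over all tested genes. The evening complex scaffold ELF3A was the only evening gene called. It had normalized counts of 1721, 880 and 1136 in combined stress and 1349, 975 and 758 in heat stress, against 2352, 2885 and 2277 in control. On the log2 scale it differed by -1.06 in combined stress (SE 0.27, limma adjusted p 0.0251) and by -1.32 in heat stress (SE 0.27, limma adjusted p 0.0273). Its libraries did not overlap with control in either comparison, as was the case for 38.2% of all genes in combined stress and 26.8% in heat stress.

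The other calls were among flowering and output genes. COL22, of the CONSTANS-like family, had 9.9, 13.3 and 20.01 in combined stress against 399, 709 and 911 in control, or -5.42 on the log2 scale (SE 0.40, limma adjusted p 4.3e-05). GMFT5A, a florigen gene, had 728, 656 and 469 in combined stress and 366, 373 and 948 in heat stress, against 1873, 1998 and 1760 in control. Its log2 change was -1.62 in combined stress (limma adjusted p 0.00706) and -1.89 in heat stress (limma adjusted p 0.0124). Unlike the 3 LHY copies, ELF3A, COL22 and GMFT5A in combined stress had every library on the same side of control. Like COL22, PIF3, a partner of light-activated phytochromes, was called lower in all 3 treatments. Its log2 changes were -0.74 in combined stress, -1.25 in heat stress and -1.004 in water deficit (limma adjusted p 0.0233, 0.00828 and 0.0283). COL10 and COL8 were called lower in combined stress and in water deficit, and COL21 was called higher in heat stress with a log2 change of 1.75 (limma adjusted p 0.0483).

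These counts depended on the libraries that stand apart. Without combined stress library 1, 2 of the 38 genes were called higher and 11 lower between combined stress and control, where 7.88% of all genes were called higher and 9.28% lower. The same numbers of the 38 were called without heat stress library 3, with 9.54% and 10.4% over all genes. In that last fit 1 of the 38 was called higher and 8 lower between heat stress and control, beside 7.18% and 7.13% of all genes.

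The split within the heated groups seen in LCL1, LCL3 and LCL4 also ran through the clock lists, and it was common over all genes. With no cut on size, 23.1% of all tested genes had the order of the 3 genes and 23.2% had the opposite order. In the clock lists these shares were 44.7% and 36.8%, or 17 and 14 of the 38 genes. All 8 tested evening genes had the opposite order and all 7 photoreceptors had the order of the 3 genes, while the other lists held both orders. Some of these differences were small, as in the evening gene GMGIA with 16784, 15443 and 16287 in combined stress. In 5 of the 38 genes (13.2%), heat stress library 3 was at least 2 times above libraries 1 and 2, and combined stress libraries 2 and 3 were at least 2 times above library 1. Those genes were PHYE1, PHYE2, COL2A, COL2B and FT2C, and 2.27% of all tested genes had this order. The opposite order, again by at least 2 times in both groups, was found in 6 of the 38 (15.8%), against 2.49% of all tested genes. These were TOC1, which represses the morning genes in Arabidopsis, GMLUXB and GMELF4A of the evening complex, the blue-light sensor FKF1, COL16 and COL17.

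TOC1 had normalized counts of 898, 332 and 383 in combined stress, 454, 337 and 121 in heat stress, 308, 275 and 351 in water deficit, and 259, 217 and 223 in control. Its highest library, combined stress library 1, was the lowest for LCL1 and LCL4, and its lowest, heat stress library 3, was the highest for both. GMELF4A was at 1.7 and 0.8 in combined stress libraries 2 and 3 and 0.9 in heat stress library 3, where LCL3 stood at 1863, 2112 and 2013. In the other 9 libraries GMELF4A had 29.7 to 79.5. FKF1 had 994 and 1138 in combined stress libraries 2 and 3 and 1346 in heat stress library 3, and 2364 to 4661 in the other 9 libraries.

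By Pearson's r, the likeness of these genes to LCL1 and to LCL3 was not the same. TOC1 ran opposite to LCL1 (r of -0.80) and LCL4 (-0.80) more than to LCL3 (-0.36). FKF1 ran opposite to LCL3 (-0.91) more than to LCL1 (-0.66), and GMELF4A did likewise (-0.79 and -0.51). The phytochrome genes PHYE1 and PHYE2 had r of 0.95 and 0.91 with LCL3, and 0.71 and 0.73 with LCL1. By rank the differences were smaller. Spearman's rho with LCL1 and with LCL3 was -0.54 and -0.26 for TOC1 and -0.71 and -0.83 for FKF1. For GMELF4A, whose lowest count was 1 read, it was -0.23 and -0.27. PHYE1 had 0.86 and 0.90, and PHYE2 had 0.83 and 0.85. Over 12 libraries that share a few extreme ones, these differences in r and rho are descriptions and were not tested. The hour of harvest of each library is not given, so its part in the split was not tested.

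**Figure D5:**
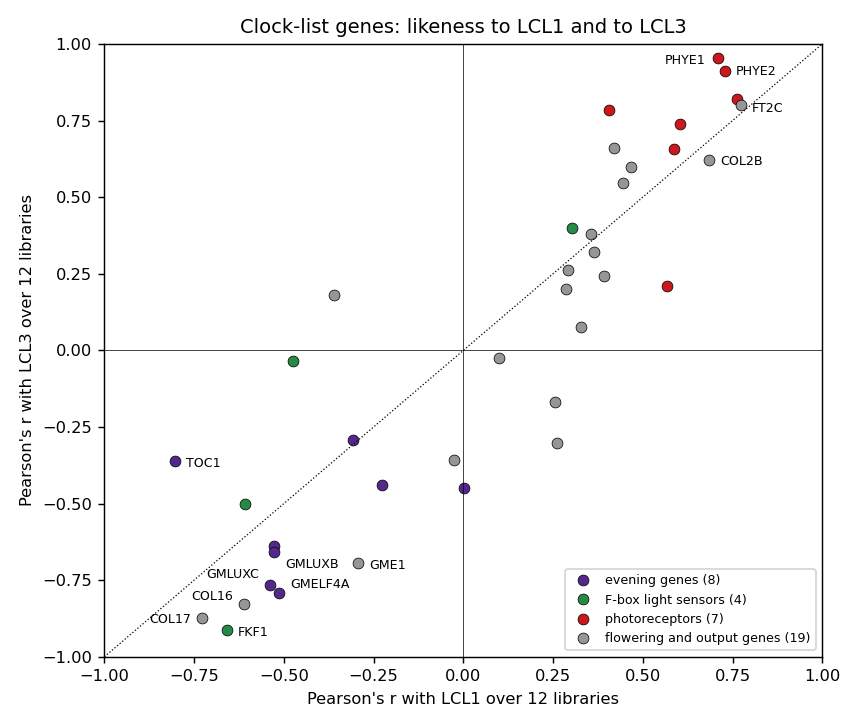
Pearson's r over the 12 libraries with LCL1 (horizontal axis) and with LCL3 (vertical axis) for the 38 tested genes of the clock lists, coloured by list, with a dotted line of equal r. TOC1 lies at -0.80 with LCL1 and -0.36 with LCL3, FKF1 at -0.66 and -0.91, and PHYE1 at 0.71 and 0.95.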

How the data were processed

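RNA sequencing of leaves gave 1 library per sample and 3 per group. The authors deposited a single table of normalized counts, a signal per gene and library. Per the submitters' processing notes, cutadapt 1.18, FastQC 0.11.7, STAR 2.4.0.1 and DESeq2 1.20.0 were used. The counting method, strand setting, genome build and annotation are not given in the sources used here. In each column of the deposited signal, 100% of positive values were whole multiples of 1 read (tolerance 0.001), and these reads were recovered. Groups came from the treatment label, and replicate numbers follow the order of the records and pair nothing.

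Genes with a mean of at least 10 were tested with limma 3.58.1 in R 4.3.3 on log2(normalized count + 1). The 4 groups entered 1 fit with a variance trend, two-sided, with Benjamini-Hochberg adjustment over all genes within each contrast. The interaction is the combined-stress effect less the sum of both single-stress effects, each against control. edgeR 4.0.16 (quasi-likelihood, TMM) and DESeq2 1.42.0 (its outlier and independent filters switched off) were alternatives on recovered reads, beside other pseudocounts, scalings and filters and leaving out each library. Exact tests and intervals used scipy 1.17.1. Only the limma and edgeR fits were tried on simulated counts with changes put in.

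The genes named are LCL1, LCL3 and LCL4, genes of the clock lists with a mean of at least 10, and for each of the 3 genes the 5 of highest and 3 of lowest r among genes with a mean of at least 100. MYB114 was added through its alias. Members and lists were chosen with earlier results of these data known. Aliases come from RefSeq genes of Glycine_max_v4.0, where 49583 of the row names (90.1%) were found as symbols. No genome positions or sequences are given.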

Additional observations from a re-analysis of the deposited data

How the results depend on the processing

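No paired analysis was possible because the labels give the groups no shared replicate numbers. Of 186 comparisons of the 21 log2 changes with another pseudocount, filter, scaling, variance model, set of groups or tool, 177 kept their sign and stayed uncalled, and 9 changed sign. With edgeR and DESeq2 the heat effect was 0.26 and 0.25 for LCL1 and 0.20 and 0.20 for LCL4, heat stress minus water deficit was 0.13 and 0.13 for LCL1 and 0.29 and 0.29 for LCL3, and with the same total per library the heat effect on LCL4 was 0.028. The cause was not tested. Of 252 fits that left out 1 library, 224 kept sign and side, 27 changed sign and 1 became a call.

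With 1 library left out, water deficit minus control ran from -0.070 to 0.34 for LCL1, 0.59 to 0.92 for LCL3 and -0.0026 to 0.47 for LCL4. Heat stress minus control ran from -0.93 to 0.31, -1.11 to 0.74 and -0.62 to 0.34 in the same order of genes. Combined stress minus control ran from -0.88 to 0.47, 0.98 to 2.36 and -0.94 to 0.40. Combined stress minus water deficit ran from -0.99 to 0.36, 0.24 to 1.63 and -1.13 to 0.21, and combined stress minus heat stress from -0.71 to 0.64, 0.73 to 2.58 and -0.90 to 0.45. Heat stress minus water deficit ran from -1.04 to 0.20, -1.85 to 0.00035 and -0.81 to 0.15, and the interaction from -0.83 to 0.52, -0.0057 to 1.85 and -1.09 to 0.25.

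Group means moved by less than their SD with either other scaling. The r of LCL3 with LCL1 and LCL4 moved to 0.957 and 0.938 without combined stress. In a check added after seeing the data, leaving out heat stress library 3 took the heat stress mean of LCL3 over LCL1 to 0.141 and of LCL3 over LCL4 to 0.206, below the control means of 0.162 and 0.291. Over all genes, DESeq2 called 6936 for combined stress, 3323 for heat stress and 1938 for water deficit against control, where limma called 4573, 1031 and 423. The smallest limma adjusted p of the 57 named genes for the interaction was 0.295. Without heat stress library 3, 3 of the 38 clock-list genes (GMFT3A, PIF3 and FT2B) were called for it, beside 4.76% of all genes.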
